A study of Mus musculus with 3 samples.

Results

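The Toll-like receptors are transmembrane sensors of microbial and damage-derived molecules. In the mandibular condyle of the mouse, 10 of their genes (Tlr1, Tlr2, Tlr3, Tlr4, Tlr5, Tlr6, Tlr7, Tlr8, Tlr9 and Tlr13) were taken by symbol from a table of 26970 genes, and all 10 were in it. Expression was measured by RNA sequencing in 3 libraries, 1 each from WT, Dspp+/- and Dspp-/- mice aged 4 months. Dspp encodes dentin sialophosphoprotein, a matrix protein of dentin and bone. The knockout is global, in the C57BL/6 background, so that every cell type carries 1 disrupted allele in Dspp+/- and no intact allele in Dspp-/-, and the heterozygotes came from crossing Dspp-/- with C57BL/6 mice. The condyle was taken with cartilage and subchondral bone still joined. Tissue of 3 animals was pooled for WT and for Dspp+/-, and the number of animals behind the Dspp-/- library is not given in the sources used here. No value for Dspp was used, so the genotypes were not checked against it.

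With 1 library per genotype no test between genotypes was possible. Each difference below is one between single libraries, with a 95% interval that covers counting error only. Levels are in FPKM, a count of fragments scaled to gene length and library size, so that genes can be compared with each other. The library sizes were 20241574 fragments for WT, 23613616 for Dspp+/- and 22253155 for Dspp-/-. Mitochondrial genes took 25.0%, 36.9% and 37.3% of the summed FPKM in that order. Xist, the RNA that coats the inactive X chromosome of female cells, stood at 0.00551, 28.5 and 26.5 FPKM in the same order, a split of WT from both mutants that stands beside that of genotype. Col2a1, the main collagen of cartilage, was at 761, 94.2 and 308 FPKM and Bglap, the osteocalcin gene of osteoblasts, at 1353, 386 and 778 FPKM, so transcripts of cartilage and bone were present in all 3 libraries, at unequal levels. Skeletal muscle, blood and marrow transcripts were abundant as well, and in bulk tissue fewer cells of a type and less RNA per cell cannot be told apart.

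Toll-like receptors work as dimers that bring their intracellular TIR domains together, and nearly all signal through the adaptor MyD88 to NF-kB. TLR3 signals through TRIF, and TLR4 can use both. Receptors of the cell surface bind lipopeptides (TLR2 with TLR1 or TLR6), lipopolysaccharide (TLR4 with MD-2 and CD14) and flagellin (TLR5). Receptors of the endosome, which the chaperone UNC93B1 carries there, bind nucleic acids. In cartilage and bone the family is best known for sensing matrix fragments and alarmins, and the endosomal receptors for their place in myeloid cells, B cells and dendritic cells.

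Tlr1 and Tlr6 are neighbouring genes on the same strand of chromosome 5 whose coding sequences share long stretches, and this limits how well their fragments can be told apart. Over 2382 coding bases laid side by side without gaps they were 64.5% identical. The identity was 86.6% over the closing 25% of the Tlr1 coding sequence and 57.0% before it. Because no gaps were allowed, bases beyond an insertion or deletion are out of step, and these shares can understate the likeness. The longest identical run, of 229 bases, lay before that closing part. A stretch of 150 bases that begins within that run is shown because fragments within it are hard to assign. It lies at chr5:64925447-64925596 in Tlr1 and at chr5:64953738-64953887 in Tlr6, on the minus strand of GRCm38 (GENCODE M21), and capitals mark the 2 bases that differ.
Tlr1: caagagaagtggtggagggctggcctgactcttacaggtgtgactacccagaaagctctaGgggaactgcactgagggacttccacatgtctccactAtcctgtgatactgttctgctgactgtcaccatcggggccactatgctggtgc
Tlr6: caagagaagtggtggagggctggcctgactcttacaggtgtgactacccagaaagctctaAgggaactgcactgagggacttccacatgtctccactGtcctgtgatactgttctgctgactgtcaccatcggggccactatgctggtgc
Of all 100-base sequences of the gene, 7.89% in Tlr1 and 7.09% in Tlr6 occurred in the other one. In Tlr3, 3.32% occurred in Gm45542, which overlaps 7.32% of its exons on the opposite strand, and whether the counting used strand is not given in the sources used here. The other 7 receptors shared no 100-base sequence with another gene.

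Regulatory sequence is shown for Tlr13, Tlr8 and Tlr9, the receptors that differed most between WT and the mutants. The windows are the 250 bases before the RefSeq start of each gene (GRCm38.p6), at chrX:106143025-106143274 on the plus strand for Tlr13, chrX:167264330-167264579 on the minus strand for Tlr8 and chr9:106222348-106222597 on the plus strand for Tlr9. Capitals mark the letters GAGGAA or their reverse complement, the core bound by ETS factors such as PU.1, a factor of myeloid and B cells.
Tlr13: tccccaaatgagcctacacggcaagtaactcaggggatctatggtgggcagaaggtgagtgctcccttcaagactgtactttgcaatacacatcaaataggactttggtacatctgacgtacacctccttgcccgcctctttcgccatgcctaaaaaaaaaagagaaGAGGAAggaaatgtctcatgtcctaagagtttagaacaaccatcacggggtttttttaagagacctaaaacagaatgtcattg
Tlr8: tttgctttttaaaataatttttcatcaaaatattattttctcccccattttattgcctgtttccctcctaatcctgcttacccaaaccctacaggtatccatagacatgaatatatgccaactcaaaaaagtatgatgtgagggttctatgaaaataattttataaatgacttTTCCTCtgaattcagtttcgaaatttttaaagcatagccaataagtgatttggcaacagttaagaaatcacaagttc
Tlr9: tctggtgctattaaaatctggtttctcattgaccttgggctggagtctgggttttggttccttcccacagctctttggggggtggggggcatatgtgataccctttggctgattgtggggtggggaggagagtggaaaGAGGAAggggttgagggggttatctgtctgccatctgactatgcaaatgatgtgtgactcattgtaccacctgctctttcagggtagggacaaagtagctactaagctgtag
The match lay 83 bases before the start in Tlr13, 77 in Tlr8 (on the other strand) and 112 in Tlr9. There were 10 windows for 8 of the 10 receptors, as Tlr1 and Tlr6 have 2 each. Tlr4 and Tlr7 had no window here and were not searched. Of these 10 windows, 4 held the core (those of these 3 genes and 1 of Tlr1), against 23.3% of all 32851 windows of this length. The longer form GAGGAAGT, which holds the core, was in Tlr1 alone among the receptors and in 2.44% of all windows. The interferon-stimulated response element was in Tlr6 alone (2.98% of all windows) and the AP-1 letters TGANTCA in Tlr9 alone (6.75%). Both strands were searched for each motif, and a match is a description of these letters, not a binding site.

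In WT, Tlr4 and Tlr2 were the most abundant receptors. Tlr4, the lipopolysaccharide receptor, stood at 6.53 FPKM (95% counting interval 6.06 to 7.02) and Tlr2, the lipopeptide receptor, at 5.90 FPKM (5.31 to 6.54), which were not separated beyond counting error. Tlr3, Tlr7 and Tlr13 followed at 2.34, 2.12 and 1.78 FPKM, each overlapping its neighbour in the order. Tlr8 (1.03 FPKM), Tlr6 (0.928), Tlr1 (0.915), Tlr9 (0.909) and Tlr5 (0.657) lay lower, and no neighbours among these 5 were separated. Of the 9 neighbouring pairs in the WT order, 7 overlapped in their counting intervals.

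The order was not the same in the mutant libraries. In Dspp+/-, Tlr2 (7.21 FPKM) and Tlr4 (6.33 FPKM) again led and overlapped, and Tlr13 came next at 5.24 FPKM, above Tlr7 (3.18), Tlr8 (3.08), Tlr9 (2.39), Tlr3 (2.16), Tlr6 (1.74), Tlr1 (1.59) and Tlr5 (0.661). In Dspp-/-, Tlr4 led at 8.91 FPKM, apart from Tlr2 at 7.68 FPKM, and Tlr13 at 6.72 FPKM overlapped Tlr2. Tlr13 was thus the fifth receptor in WT and the third in both mutants, and Tlr3 the third in WT, the seventh in Dspp+/- and the sixth in Dspp-/-. Neighbouring intervals overlapped in 6 of 9 pairs in Dspp+/- and in 4 of 9 in Dspp-/-. Overlap does not show that 2 levels are equal within counting error. The ratio of Tlr2 to Tlr4 in Dspp+/- was 1.14 (1.02 to 1.27), above 1 although their intervals overlapped.

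**Figure D1:**
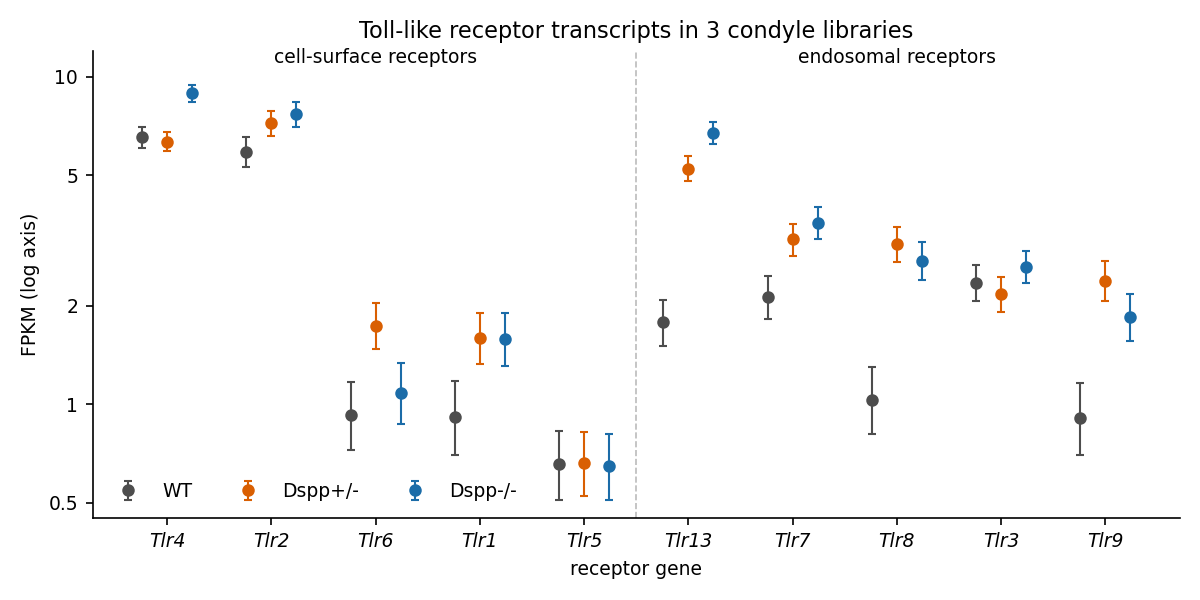
Level of each Toll-like receptor in FPKM (log axis) in the WT, Dspp+/- and Dspp-/- libraries, with surface receptors on the left and endosomal receptors on the right. Points are single libraries and bars 95% counting intervals. Tlr8, Tlr9 and Tlr13 sit far below their mutant values in WT, and Tlr5 is level in all 3 libraries.

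Among the surface receptors, differences from WT were below 2-fold, and Tlr4 differed beyond counting error in Dspp-/- but not in Dspp+/-. Tlr4 (chromosome 4, 66745821 to 66848521, plus strand; this and the positions that follow are those of the deposited table) was counted with 734, 831 and 1102 fragments in WT, Dspp+/- and Dspp-/-, at 6.53 FPKM in WT. Its level of 6.33 FPKM in Dspp+/- was 0.970-fold that of WT (0.878 to 1.07), and its level of 8.91 FPKM in Dspp-/- was 1.37-fold that of WT (1.24 to 1.5). The Dspp-/- library lay above both others, which overlapped each other. With hemoglobin, immunoglobulin and muscle genes left out of the library size, Tlr4 in Dspp+/- was 0.848-fold WT (0.767 to 0.938), below WT beyond counting error, and in Dspp-/- 1.21-fold (1.10 to 1.33).

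Tlr2 (chromosome 3, 83743579 to 83749074, minus strand) stood at 5.90 FPKM in the WT library, 7.21 in Dspp+/- and 7.68 in Dspp-/-. The folds against WT were 1.22 (1.07 to 1.40) and 1.3 (1.14 to 1.49), so both mutant libraries were above WT by a small margin. Without hemoglobin, immunoglobulin and muscle genes in the library size, the fold in Dspp+/- was 1.07 (0.931 to 1.22) and no longer separated from 1.

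Of the partners of Tlr2, Tlr1 stood above WT beyond counting error in both mutants and Tlr6 in Dspp+/- alone. Tlr1 (chromosome 5, 65082022 to 65090906, minus strand), which pairs with TLR2 for triacylated lipopeptides, was at 0.915 FPKM for WT, 1.59 for Dspp+/- and 1.58 for Dspp-/-, from 62, 126 and 118 fragments. It was 1.74-fold WT in Dspp+/- (1.28 to 2.40) and 1.73-fold in Dspp-/- (1.26 to 2.39). Tlr6 (chromosome 5, 65109374 to 65117440, minus strand), the partner for diacylated lipopeptides, was at 0.928 FPKM for WT, 1.74 for Dspp+/- and 1.09 for Dspp-/-. Only the Dspp+/- library stood apart, at 1.87-fold WT (1.40 to 2.52) against 1.17-fold in Dspp-/- (0.846 to 1.62). The ratio of Tlr1 to Tlr6 within a library, which does not depend on library size, was 0.987 in WT (0.689 to 1.41), 0.917 in Dspp+/- (0.719 to 1.17) and 1.46 in Dspp-/- (1.10 to 1.94). These intervals all overlapped one another, which does not show that the ratios were equal. How shared fragments were divided between these genes is not given.

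Tlr5 (chromosome 1, 182782353 to 182804010, plus strand), the flagellin receptor, was the lowest in every library, at 0.657, 0.661 and 0.649 FPKM. Its mean was below the 1 FPKM required of a gene for the comparisons that count genes, so 9 of the 10 receptors entered those. Its folds of 1.01 (0.721 to 1.41) and 0.989 (0.703 to 1.39) were not separated from 1. Its fragments rest on a gene length of 5191 bases that was read from the values, 401 bases longer than in GENCODE M21. Another 4 lengths in range also gave whole fragments, not all with the same numbers, so its counting intervals are less certain than those of the other receptors.

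The endosomal receptors held the widest differences. Tlr13 (chromosome X, 105186810 to 105204099, plus strand), a receptor for bacterial ribosomal RNA that humans lack, was at 1.78 FPKM for WT, 5.24 for Dspp+/- and 6.72 for Dspp-/-, from 155, 533 and 644 fragments. It was 2.95-fold WT in Dspp+/- (2.46 to 3.55) and 3.78-fold in Dspp-/- (3.17 to 4.53), with no overlap among the 3 libraries. Set against Tlr4 in the same library, Tlr13 was at 0.273 of its level in WT (0.228 to 0.325), 0.828 in Dspp+/- (0.741 to 0.924) and 0.754 in Dspp-/- (0.683 to 0.832).

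Tlr8 (chromosome X, 166025692 to 166047325, minus strand) and Tlr7 (chromosome X, 166087925 to 166113554, minus strand) are adjacent genes whose products sense RNA fragments. Tlr8 stood at 1.03 FPKM for WT, 3.08 for Dspp+/- and 2.74 for Dspp-/-, which is 2.98-fold (2.30 to 3.91) and 2.66-fold (2.03 to 3.50) WT. Tlr7 stood at 2.12, 3.18 and 3.58 FPKM, which is 1.5-fold (1.24 to 1.82) and 1.69-fold (1.40 to 2.04) WT. Both were lowest in WT, and the difference was wider for Tlr8: the ratio of Tlr7 to Tlr8 was 2.05 in WT (1.56 to 2.72), 1.03 in Dspp+/- (0.873 to 1.22) and 1.3 in Dspp-/- (1.10 to 1.55).

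Tlr9 (chromosome 9, 106099797 to 106104082, plus strand), the receptor for unmethylated CpG DNA, had a level of 0.909 FPKM for WT, 2.39 for Dspp+/- and 1.85 for Dspp-/-. The folds were 2.63 (1.97 to 3.54) and 2.03 (1.5 to 2.77), so both mutants were above WT and Dspp+/- was the highest. Tlr3 (chromosome 8, 45848702 to 45864117, minus strand), the receptor for paired RNA strands and the one that works without MyD88, did not follow the other endosomal receptors. It was at 2.34, 2.16 and 2.63 FPKM, with folds of 0.923 (0.773 to 1.10) and 1.12 (0.947 to 1.33), neither separated from WT. This depended on the scaling: without hemoglobin, immunoglobulin and muscle genes the fold in Dspp+/- was 0.806 (0.676 to 0.963), and without mitochondrial genes the fold in Dspp-/- was 1.19 (1.00 to 1.41), barely above 1.

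**Figure D2:**
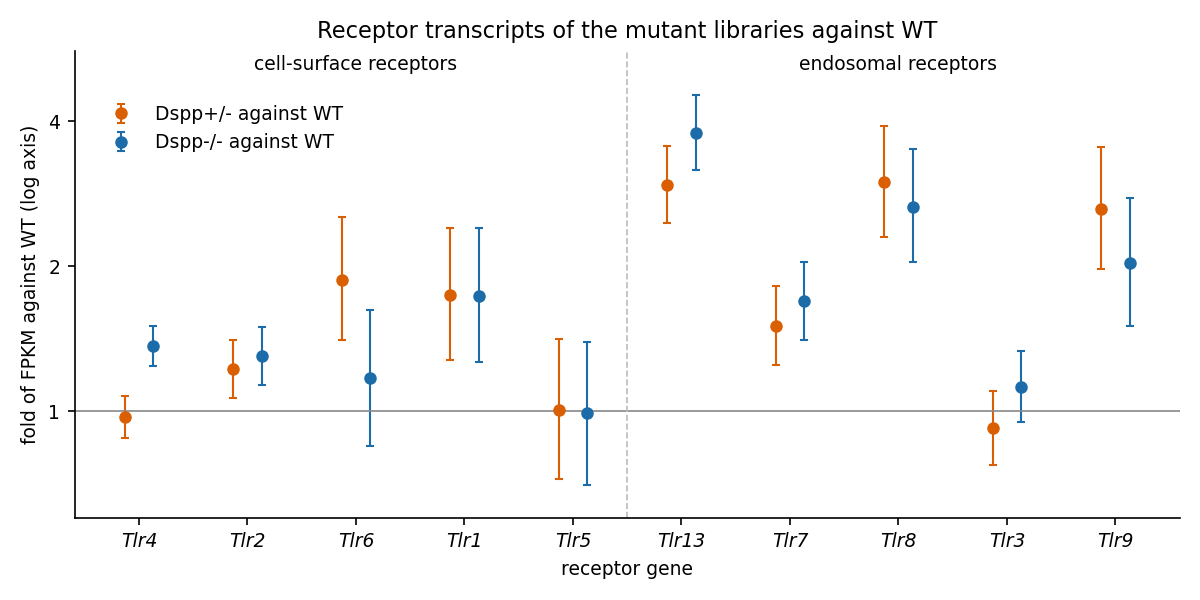
Fold of each receptor's FPKM against WT in the Dspp+/- and the Dspp-/- library, with 95% counting intervals; the line at 1 is the WT level. Tlr13, Tlr8 and Tlr9 lie farthest above the line in both mutants, and Tlr3 and Tlr5 overlap it in both.

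Counted on the log2 scale of FPKM + 1, which understates the change of low genes, 2 of the 9 receptors compared (Tlr8 and Tlr13) were at least 2-fold higher in Dspp+/- than in WT, against 4.88% of all 13026 genes compared, and none was 2-fold lower, against 2.86%. In Dspp-/- only Tlr13 was 2-fold higher, against 4.05% of all genes, and none was 2-fold lower, against 1.37%. By the counting interval alone, 7 of 9 receptors were above WT in Dspp+/-, against 39.2% of all genes, and none below, against 28.4%. In Dspp-/- it was again 7 of 9, against 34.0%, and none below, against 33.6%. These large background shares show how often single deep libraries differ beyond counting error. Tlr1, Tlr2, Tlr7, Tlr8, Tlr9 and Tlr13 were above WT by this measure in both mutants, Tlr6 in Dspp+/- and Tlr4 in Dspp-/-. The comparisons share the WT library, so a low value there raises both folds. A receptor that passed the filter on its mean through the mutant libraries, as Tlr1, Tlr6 and Tlr9 did with less than 1 FPKM in WT, was bound to lean upward.

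The median log2 ratio of the 9 receptors was 0.44 in Dspp+/- and 0.43 in Dspp-/-, beside 0.06 and 0.01 over all genes compared. The 4 surface receptors compared had medians of 0.34 and 0.36, and the 5 endosomal receptors 0.83 and 0.58. The endosomal medians are the values of Tlr9, which passed the filter through the mutants, as Tlr1 and Tlr6 did among the surface receptors. All 9 were above 0 in Dspp-/-, against 6609 of all 13026 genes compared. In Dspp+/- it was 7, against 7337 of all genes, with Tlr3 and Tlr4 slightly below. Tlr5, which the filter left out, was at 0.0036 in Dspp+/- and -0.0065 in Dspp-/-.

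The makeup of the family can be read without regard to library size. Fragments of endosomal receptors made up 35.6% of all receptor fragments in WT (716 of 2011, exact binomial interval 33.5 to 37.7), 47.8% in Dspp+/- (1563 of 3267, 46.1 to 49.6) and 46.3% in Dspp-/- (1636 of 3536, 44.6 to 47.9). The mutant libraries overlapped each other and lay above WT. The X-linked Tlr7, Tlr8 and Tlr13 gave 405, 1101 and 1188 of these endosomal fragments in WT, Dspp+/- and Dspp-/-. Tlr3 and Tlr9 together did not gain in share, but the single receptors differed. Of the summed receptor FPKM in WT, Dspp+/- and Dspp-/-, Tlr13 held 7.70%, 15.6% and 18.0% and Tlr8 4.47%, 9.17% and 7.33%. Tlr7 was nearly level at 9.16%, 9.48% and 9.56%. The autosomal Tlr9 was higher in both mutants (3.93%, 7.10% and 4.94%) and Tlr3 lower (10.1%, 6.44% and 7.03%). In summed FPKM, the surface receptors came to 14.9, 17.5 and 19.9 and the endosomal receptors to 8.18, 16.1 and 17.5 in WT, Dspp+/- and Dspp-/-.

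**Figure D3:**
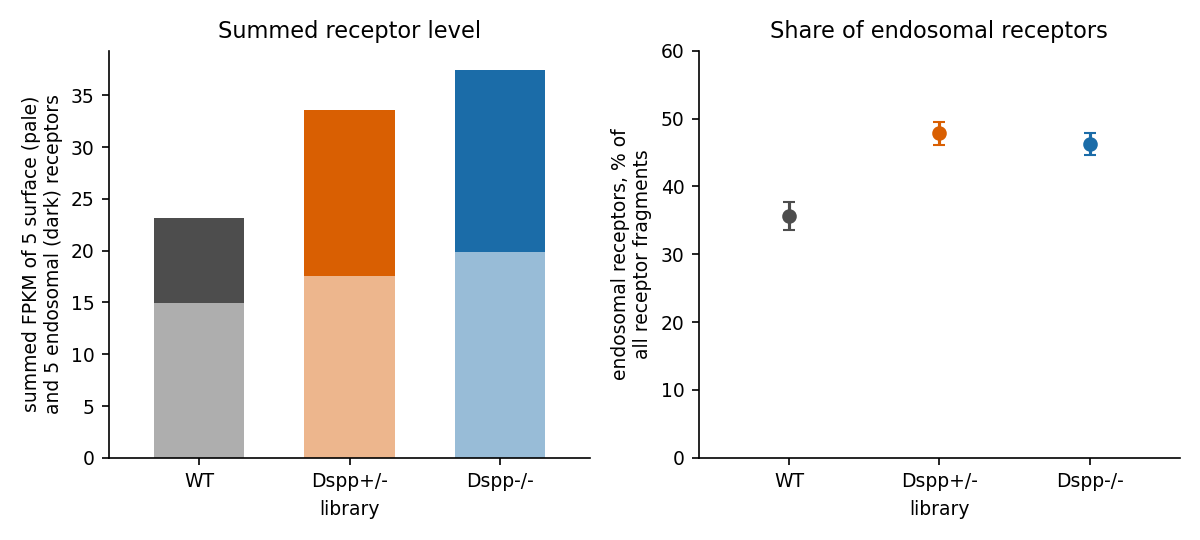
Makeup of the receptor family in each library by the site of the receptor, cell surface or endosome. The endosomal share is 35.6% in WT, 47.8% in Dspp+/- and 46.3% in Dspp-/-, with 95% exact binomial intervals that cover counting error only. Among the endosomal receptors, Tlr8, Tlr9 and Tlr13 held a larger share in both mutants than in WT, Tlr7 was nearly level and Tlr3 held less.

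Tlr7, Tlr8 and Tlr13, all endosomal, lie on the X chromosome, so their share is not a reading separate from the endosomal share. Their share of the receptor fragments was 20.1% in WT (18.4 to 22.0), 33.7% in Dspp+/- (32.1 to 35.4) and 33.6% in Dspp-/- (32.0 to 35.2). Their median log2 ratios were 1.01 in Dspp+/- and 0.88 in Dspp-/-, beside 0.07 and 0.13 over 410 other X-linked genes and 0.34 and 0.36 over the 6 autosomal receptors compared. Xist moved with the same split of libraries, with 2 fragments for WT, 12084 for Dspp+/- and 10563 for Dspp-/-. The sex of the animals is not given in the sources used here, and a difference in sex cannot be told apart from one in genotype in these libraries.

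The mutant libraries can be set against each other directly. No receptor differed 2-fold between them, against 0.852% of all genes higher and 0.798% lower in Dspp-/-. By the counting interval, 3 of 9 receptors were higher in Dspp-/- than in Dspp+/-, against 25.4% of all genes, and 2 were lower, against 34.5%. Tlr4 was 1.41-fold (1.28 to 1.54), Tlr13 1.28-fold (1.14 to 1.44) and Tlr3 1.22-fold (1.03 to 1.44) the level in Dspp+/-. Tlr6 was 0.624-fold (0.476 to 0.815) and Tlr9 0.774-fold (0.620 to 0.965). Tlr4 was the receptor with the widest gap upward and Tlr6 the one with the widest gap downward.

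Genes of the pathway were described from lists written by hand. For these and for the cell markers, 2-fold refers to the log2 scale of FPKM + 1, on which a low gene can miss the threshold although its FPKM differ by more. Over all genes compared, 4.88% were 2-fold higher and 2.86% lower in Dspp+/-, and 4.05% and 1.37% in Dspp-/-. A count of 0 in a short list is thus near the background. A gene under 1 FPKM in WT that passed the filter through the mutants was bound to lean upward, among the markers Cd22, Nkg7 and Epb42 for instance. Among 6 genes for co-receptors and ligand delivery, Cd36, a scavenger receptor also abundant in fat and muscle, was 2-fold higher in both mutants (84.1, 217 and 175 FPKM in WT, Dspp+/- and Dspp-/-). Cd180, a TLR4-like receptor of B cells, stood at 0.592, 2.04 and 2.59 FPKM and reached 2-fold on the log2 scale in Dspp-/- alone, with folds of 3.44 (2.55 to 4.73) and 4.38 (3.26 to 5.99). The genes that complete the TLR4 complex did not follow Cd180. Cd14, which hands lipopolysaccharide over, was at 8.02, 7.09 and 7.34 FPKM, with folds of 0.885 (0.748 to 1.05) and 0.916 (0.774 to 1.08). Ly96, which encodes MD-2, was at 3.19, 2.12 and 2.46 FPKM, with folds of 0.662 (0.45 to 0.969) and 0.772 (0.531 to 1.12). The list's median log2 ratios were 0.65 and 0.58. They lean upward through Cd180 and Ly86, which had 0.592 and 0.830 FPKM in WT and passed the filter through the mutants.

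None of 9 genes for receptor folding, transport and processing differed 2-fold on the scale of FPKM + 1, and their medians were -0.17 and -0.24. Unc93b1, which escorts the endosomal receptors, was at 17.1, 28.7 and 22.1 FPKM, with folds of 1.68 (1.56 to 1.81) and 1.29 (1.19 to 1.40). Ctss, a cathepsin of antigen-presenting cells that cuts endosomal receptors, was at 17.9, 35.8 and 30.2 FPKM, which is 2.0-fold (1.80 to 2.23) and 1.69-fold (1.51 to 1.89) WT. Both were lowest in WT and highest in Dspp+/-, as Tlr9 was. Other genes of this list stood highest in WT: Ctsb, another cathepsin, at 128, 101 and 108 FPKM, and Cnpy4, a folding factor for surface receptors, at 11, 6.11 and 6.41 FPKM. Hsp90b1, the chaperone GP96, was at 55.6, 59.9 and 53.5 FPKM.

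Of 6 adaptors with a TIR domain or related role, 4 were compared and none differed 2-fold, with medians of 0.22 and 0.28. Myd88 stood at 7.67, 8.80 and 9.40 FPKM, with folds of 1.15 (1.01 to 1.31) and 1.23 (1.07 to 1.40). Tirap, the bridge of TLR2 and TLR4 to MyD88, stood at 4.07, 5.12 and 5.26 FPKM. Ticam1, which encodes TRIF, the adaptor of TLR3, stood at 4.31, 2.94 and 3.54 FPKM, with folds of 0.683 (0.567 to 0.823) and 0.822 (0.687 to 0.985), below WT in both mutants and narrowly so in Dspp-/-. Intervals that end this close to 1, as for Ticam1 in Dspp-/- and Myd88 in Dspp+/-, depend on how the library size is scaled. Pik3ap1, which links the receptors to PI3K, was at 5.09, 6.48 and 8.18 FPKM.

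None of 13 proximal kinases and ubiquitin ligases differed 2-fold on the scale of FPKM + 1, near the shares over all genes, with medians of 0.20 and 0.13. The most abundant, Tab2 and Map3k7, partners in the TAK1 complex, were at 26.3, 30.7 and 33.9 FPKM and at 15.7, 16.9 and 17.2 FPKM. Tab3 of the same complex differed most, at 1.51, 3.42 and 3.40 FPKM, which as plain FPKM is 2.26-fold (1.92 to 2.67) and 2.25-fold (1.91 to 2.67) WT, followed by Ikbke, a kinase of the IRF branch, at 1.07, 1.62 and 1.48 FPKM. Of 11 genes of the NF-kB and IRF arm, only Irf8, a factor of monocytes, dendritic cells and B cells, was 2-fold higher on that scale, and in Dspp+/- alone (2.20, 6.23 and 3.90 FPKM). Its folds were 2.83 (2.5 to 3.23) and 1.78 (1.55 to 2.04). Rel, the NF-kB subunit of lymphoid and myeloid cells, was at 2.16, 3.48 and 4.39 FPKM, which as plain FPKM is 1.61-fold (1.40 to 1.84) and 2.03-fold (1.78 to 2.32) WT, and Rela, the widely used subunit, at 22.4, 21 and 22.2 FPKM.

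Of 10 negative regulators, 9 were compared. Socs1, an inhibitor of cytokine signalling, was the only one to differ 2-fold, lower in Dspp+/- (3.72, 1.3 and 2.16 FPKM), with folds of 0.348 (0.269 to 0.448) and 0.581 (0.467 to 0.722). Irak3, the decoy kinase of the receptors, was at 3.56, 5.53 and 5.81 FPKM. Nfkbia, which encodes the inhibitor of NF-kB, was at 53.7, 42.3 and 37.6 FPKM, highest in WT, and Tollip, an inhibitor of IRAK signalling, at 13.8, 14.4 and 14.5 FPKM. The medians of the list were 0.11 and 0.07.

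Most inflammatory target genes were near the limit of detection. Of 14 listed, 13 were in the table used here and 3 reached a mean of 1 FPKM, and these passed through the libraries in which they were high. Il1b, the interleukin-1 beta gene, was at 0.259, 3.44 and 1.81 FPKM, from 10, 155 and 77 fragments, with folds of 13.3 (7.03 to 28.3) and 7.00 (3.61 to 15.2). Ccl5, a chemokine, was at 0.875, 2.91 and 1.78 FPKM. Both were lowest in WT and highest in Dspp+/-. Il6 had 2, 2 and 0 fragments, under the floor of 3 fragments, so a difference was not detectable at this depth.

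Of 11 genes for endogenous ligands, 10 were compared, and their medians were -0.30 and -0.15. The alarmins S100a8 and S100a9, proposed ligands of TLR4 and major neutrophil proteins, were at 133, 542 and 956 FPKM and at 232, 916 and 1339 FPKM, 2-fold higher in both mutants. The matrix gene Tnc, for tenascin C, was 2-fold lower in Dspp+/- (200, 94.8 and 120 FPKM). Fn1, for fibronectin, whose fragments are described as TLR4 ligands, was at 528, 450 and 400 FPKM, with folds of 0.852 (0.846 to 0.859) and 0.757 (0.751 to 0.764). Alarmins and matrix ligands thus stood on opposite sides of WT. The study stained TLR4, fibronectin, IL-6 and MMP-2 protein in condylar cartilage of older mice and reported each of them increased in Dspp+/-. The RNA is of the whole condyle of younger mice, so it is not a like measure of these proteins. Of the genes of these proteins, Tlr4, Fn1 and Mmp2 could be compared, and none stood above WT in Dspp+/-. Mmp2 differed 2-fold, lower in Dspp+/- (381, 171 and 259 FPKM), at 0.449-fold WT (0.440 to 0.458). Tlr4 in Dspp+/- was 0.970-fold WT (0.878 to 1.07).

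**Figure D4:**
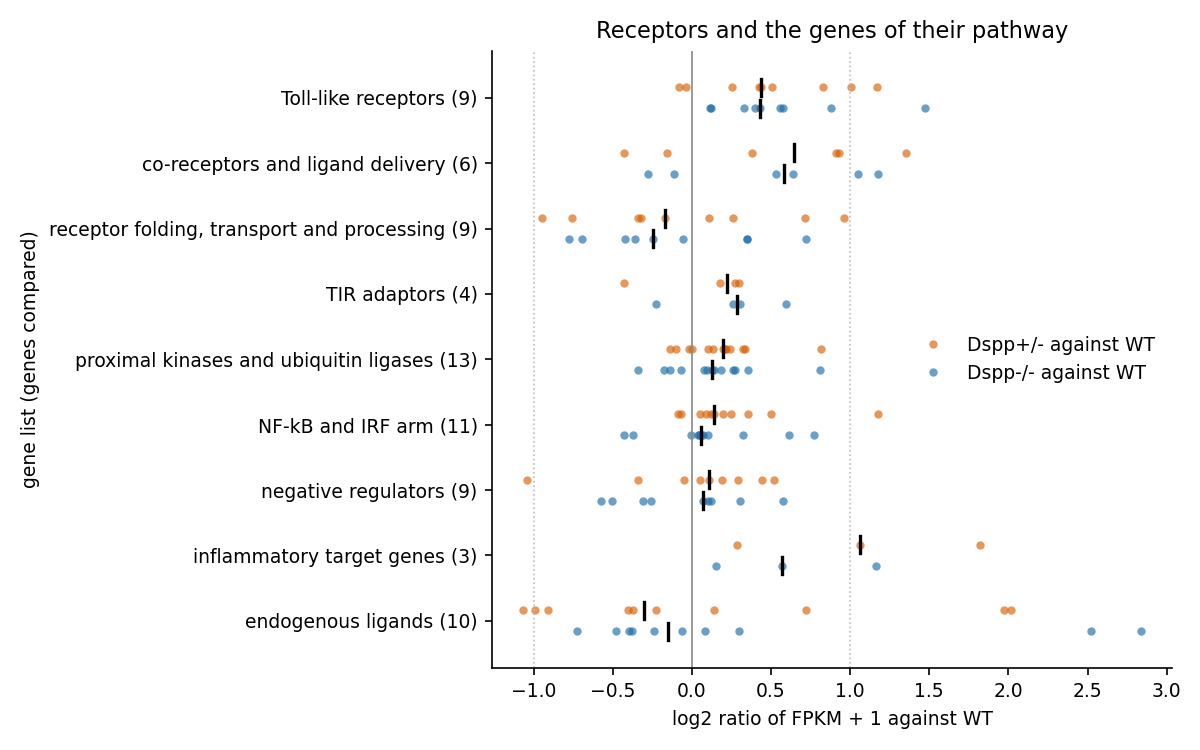
Log2 ratios of FPKM + 1 against WT for the Toll-like receptors and the genes of their pathway, one point per gene compared, with a black bar at each list's median. The receptors' medians are 0.44 and 0.43, those of the signalling lists lie between 0.06 and 0.28, and S100a8 and S100a9 form the pair far to the right.

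Markers of the cells that carry these receptors differed between the libraries as well. All 11 neutrophil markers were at least 2-fold higher in both mutants, with summed levels of 607, 2648 and 3575 FPKM, and Ly6g, a surface marker of mouse neutrophils, was at 2.99, 11.6 and 17.5 FPKM. Of 7 B cell markers, 5 were 2-fold higher in Dspp+/- and 4 in Dspp-/- (sums of 20.7, 62.9 and 47.8 FPKM; the most abundant, Cd79b, at 5.90, 21.8 and 15.4). Vpreb1, a gene of B cell precursors, went the other way in Dspp+/- (1.40, 0.565 and 1.46 FPKM). Of 8 monocyte markers, 4 and 3 were 2-fold higher, while their sum of 594, 554 and 493 FPKM was mostly Fn1. None of the 8 macrophage markers compared differed 2-fold (sums of 147, 139 and 131 FPKM; Adgre1, a surface marker of mouse macrophages, at 5.90, 8.30 and 7.83, and the most abundant, Cd68, at 50.4, 34.7 and 44.3).

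None of the 4 dendritic cell markers compared differed 2-fold on the scale of FPKM + 1 (sums over all 9 listed of 21.1, 29.0 and 25.2 FPKM), and Siglech, a marker of plasmacytoid dendritic cells, was at 0.672, 1.44 and 1.89 FPKM, which as plain FPKM is 2.14-fold and 2.81-fold WT. The most abundant gene of that list, Bst2, was at 14.9, 19.4 and 16.8 FPKM. Of 8 T and NK cell markers, 2 were compared. Nkg7, a gene of NK granules, was 2-fold higher in each mutant (0.432, 13.1 and 5.46 FPKM), and Cd4 in neither (1.78, 2.45 and 1.69). The sums over all 8 of 2.99, 17.2 and 8.38 FPKM were mostly Nkg7 in the mutants. Cd3e was at 0.0242, 0.311 and 0.0661 FPKM from 2, 30 and 6 fragments, in WT under the floor of 3. Cd3d was level at 0.218, 0.210 and 0.223 FPKM. All 7 erythroid markers were 2-fold higher in both mutants (852, 3584 and 3450 FPKM, led by the globin gene Hbb-bs at 425, 1794 and 1886). Bone and cartilage lists went the other way. Osteoclast markers were 2-fold lower for 6 of 8 in Dspp+/- and 1 of 8 in Dspp-/- (2258, 804 and 1317 FPKM; Ctsk at 863, 279 and 481), osteoblast and osteocyte markers for 7 and 4 of 8 (10455, 2887 and 5431 FPKM, led by Col1a1 at 6675, 1719 and 3610), and chondrocyte markers for 4 of 7 in both (1623, 523 and 754 FPKM). Prg4, the lubricin gene of the joint surface, was the exception among the chondrocyte genes, at 43.8, 73.4 and 57.2 FPKM.

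Endothelial markers did not differ 2-fold (136, 150 and 143 FPKM; Pecam1 at 31.2, 38.6 and 37.0, and Cdh5 at 48.9, 56.2 and 52.8). Muscle markers summed to 9186, 12856 and 10445 FPKM, led by Acta1 at 5609, 8162 and 7150, and of 6, 1 was 2-fold higher and 1 lower in Dspp+/- and none in Dspp-/-. Of the defining markers named here none was at 0 in any library. Neutrophil and erythroid markers, like the X-linked receptors, split WT from both mutants. Summed B cell markers, Irf8 and Tlr9 were highest in Dspp+/-, and Tlr4 and Tlr13 in Dspp-/-. The neutrophil list itself was divided. Mpo (3.23, 109 and 38.3 FPKM), Elane (4.77, 175 and 78.3) and Csf3r (4.24, 28.8 and 22.5) were highest in Dspp+/-. The other neutrophil markers, Ly6g among them, were highest in Dspp-/-. Of the B cell markers reported, Ebf1 (4.72, 6.71 and 7.48) and Vpreb1 were highest in Dspp-/- and the others in Dspp+/-. The part of cell makeup in the receptor differences was not tested.

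**Figure D5:**
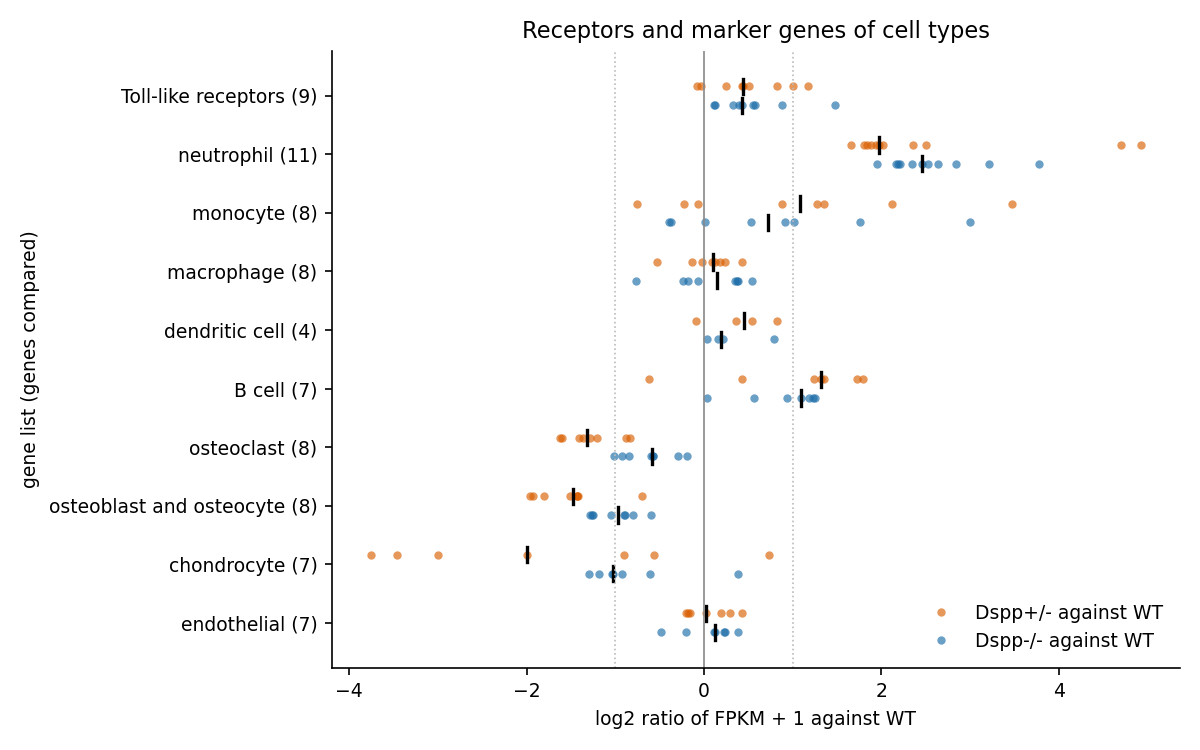
Log2 ratios of FPKM + 1 against WT for markers of the cell types the condyle tissue could hold, one point per gene compared, with a black bar at each list's median. Neutrophil markers lie to the right of 0 in both mutants, as do B cell markers except Vpreb1 in Dspp+/-. Macrophage and endothelial markers lie around 0, and osteoblast, osteoclast and chondrocyte markers except Prg4 lie to the left.

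For Tlr4, the most abundant receptor on average, the list genes with the most similar pair of log2 ratios against WT were Vsig4, a macrophage receptor, at a distance of 0.0171 on the log2 scale, Emcn, an endothelial sialomucin, at 0.170, and Chuk, an NF-kB kinase, at 0.189. The likeness was taken over 147 genes and rests on 3 libraries. Vsig4 had 39, 44 and 66 fragments in WT, Dspp+/- and Dspp-/-, with folds of 0.967 (0.614 to 1.53) and 1.54 (1.02 to 2.35). Its counting error is thus far wider than its distance from Tlr4.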

How the data were processed

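RNA of the mandibular condyle was poly(A)-selected, and CapitalBio Technology sequenced it as read pairs of 150 bases. The authors deposited 1 table with 1 value per gene and genotype, whose unit is not named and which was read here as FPKM. The labels speak of triplicates. The submitters' processing notes name FastQC 0.11.5, HISAT2 2.1.0 and StringTie 1.3.3b with no role, and hg38, a human build, although identifiers and positions are those of mouse. Counting tool, annotation and filters are not given in the sources used here. The table's positions are of a build other than GRCm38.

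For 26196 genes (98.3% of the 26652 that GENCODE M21 also lists), the product of FPKM and merged exon length came out as a whole number (within 0.1) times 1 constant per library in all 3 libraries, which gave fragments and depth. Per fragment, a gene of 1 kilobase gains 0.0494, 0.0423 and 0.0449 FPKM in WT, Dspp+/- and Dspp-/-. Folds of FPKM have 95% Clopper-Pearson intervals, levels exact Poisson intervals. Genes averaging 1 FPKM or more were compared as log2 ratios of FPKM + 1, with a threshold of 2-fold. The counting-interval shares over all genes use the 12713 of these with whole fragments.

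The members and lists were chosen with earlier results of these data known. Genes named are all receptors, the core pathway genes, and of each pathway list the 2 most abundant and the 2 that differed most. Defining markers are named for most marker lists. Alternatives were other pseudocounts, filters, thresholds and scalings. Ifnb1 and Marco were not used, and 1 further B cell marker is not reported here. The recovery of fragments was tested on simulated data. Tools were scipy 1.17.1, pandas 2.3.3, numpy 2.4.6 and matplotlib 3.10.9 under Python 3.11.15.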

Additional observations from a re-analysis of the deposited data

How the results depend on the processing

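No paired analysis was possible because each genotype has 1 library, and leaving out a replicate was not possible for the same reason. The number of receptors at least 2-fold higher in Dspp+/-, 2 as reported, was 3 with a pseudocount of 0.1 and with a threshold of 1.5-fold, 0 with a pseudocount of 5, 0 with a minimum mean of 5 FPKM (which leaves Tlr2 and Tlr4), 0 without the X-linked receptors, 1 with median-ratio scaling and 1 with hemoglobin, immunoglobulin and muscle genes left out of the library size. In Dspp-/-, 1 as reported, it was 2 with a pseudocount of 0.1, 2 with a threshold of 1.5-fold, and 0 with a pseudocount of 5, with a minimum mean of 5 FPKM and without the X-linked receptors. The receptors' median log2 ratio fell from 0.44 to 0.18 in Dspp+/- and from 0.43 to 0.22 in Dspp-/- with a pseudocount of 5, which shrinks low genes by construction, and was 0.11 in Dspp+/- with a minimum mean of 5 FPKM.

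The median over all genes turned negative in Dspp-/- with median-ratio scaling (-0.0082) and with a minimum mean of 5 FPKM (-0.014), and in Dspp+/- and Dspp-/- without hemoglobin, immunoglobulin and muscle genes (-0.10 and -0.13). The last scaling lowered that median by over 0.1 on the log2 scale, and the receptors' medians were then 0.32 and 0.33. Of 9 receptors, 6 then stood above WT in Dspp+/- beyond counting error, without Tlr2, and Tlr3 and Tlr4 below. With mitochondrial genes left out, 8 did in Dspp-/-, Tlr3 being the addition. Of 100 values of single receptors under the alternatives, 79 moved by less than their counting interval, 21 by more, and 0 changed sign where called. The count of all genes at least 2-fold higher and lower went from 636 and 373 in Dspp+/- to 971 and 605 with a pseudocount of 0.1, 185 and 156 with 5, and 1501 and 1166 at 1.5-fold. In Dspp-/- it went from 527 and 179 to 836 and 363, 136 and 45, and 1152 and 1070. Receptor values rest on 62 to 1102 fragments, which limits the lower ones (Tlr1, Tlr5, Tlr6, Tlr9) most.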

Other observations

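Both further Toll-like receptors of the mouse listed, the profilin receptors Tlr11 and Tlr12, were near the limit of detection. Tlr11 stood at 0.106, 0.0647 and 0.11 FPKM in WT, Dspp+/- and Dspp-/-, from 7, 5 and 8 fragments. Tlr12 stood at 0.233, 0.413 and 0.325 FPKM, with folds of 1.77 (0.928 to 3.53) and 1.39 (0.697 to 2.87), not separated from WT in either mutant.

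A further pair of pathway genes was chosen after their values were seen. Ly86, which encodes MD-1, the partner of CD180, was at 0.830, 2.44 and 1.84 FPKM, with folds of 2.94 (2.20 to 3.97) and 2.22 (1.64 to 3.04). Ptgs2, the inducible cyclooxygenase gene, was at 1.11, 0.388 and 1.29 FPKM, with folds of 0.350 (0.238 to 0.505) and 1.16 (0.887 to 1.51), so that Dspp+/- stood below both other libraries.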
